A study of Mus musculus with 6 samples.

Results

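The mRNAs of 9 enzymes, lanosterol synthase and 8 that turn lanosterol into cholesterol, were followed in the liver of pregnant mice. They were *Lss*, *Cyp51*, *Tm7sf2*, *Msmo1*, *Nsdhl*, *Hsd17b7*, *Ebp*, *Sc5d* and *Dhcr7*, taken by symbol from a table of 56691 genes. All 9 were found and all 9 were among the 10866 genes that were tested, those with a mean FPKM of at least 1. FPKM is the read count of a gene scaled by its exonic length and by the reads of its library, so it is a level per length.

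Cholesterol is built in the endoplasmic reticulum of hepatocytes and of most other cells. Lanosterol synthase closes squalene epoxide into lanosterol, the first sterol of the route, and the enzymes that follow remove methyl groups, move or reduce double bonds and add a new one until cholesterol is reached. In liver these genes are known targets of SREBP2, a transcription factor that is released to the nucleus when sterols are scarce. ChREBP, the product of *Mlxipl*, is a transcription factor that answers to sugar and is known for its control of glycolytic and lipogenic genes.

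Bulk poly(A) RNA of whole liver came from 3 KPF and 3 WPF dams, all pregnant and all given a high-fructose diet (HFrD) after mating. By the paper's design the dams stayed on this diet until they were sacrificed late in pregnancy. KPF dams were h*Chrebp* KO, that is *Chrebp* flox/flox mice with an Alb-Cre transgene. Its albumin promoter drives Cre recombinase in hepatocytes, where Cre removes exon 2 of *Mlxipl*, while other liver cells keep the gene. WPF dams carried the same floxed alleles without Cre, and the sample labels call their genotype WT. The age of the dams was not given in the sources used here, and groups on normal chow were not analysed here.

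The sequence just upstream of the start site is shown for 4 of the genes, because 2 of them are those with no overlap between the groups (*Sc5d* and *Cyp51*), *Msmo1* is the only gene above 0 in KPF vs. WPF, and *Hsd17b7* holds the same E-box word as *Sc5d*. Each is the 180 bases before the annotated start, written 5′ to 3′ on the strand of the gene, from RefSeq on GRCm38.p6. Capitals mark the CCAAT box, which reads ATTGG where it lies on the other strand, and the E-box CACGTG, whose letters are the same on both strands and form part of the element that ChREBP is known to bind.
Sc5d, chr9:42264301-42264480, minus strand: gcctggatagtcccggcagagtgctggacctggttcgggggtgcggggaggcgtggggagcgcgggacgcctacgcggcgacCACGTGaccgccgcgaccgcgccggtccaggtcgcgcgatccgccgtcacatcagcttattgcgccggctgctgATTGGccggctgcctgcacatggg
Cyp51, chr5:4104698-4104877, minus strand: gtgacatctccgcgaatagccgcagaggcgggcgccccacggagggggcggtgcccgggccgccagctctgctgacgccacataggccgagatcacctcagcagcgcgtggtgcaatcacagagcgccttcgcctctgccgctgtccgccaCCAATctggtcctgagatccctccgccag
Msmo1, chr8:64733579-64733758, minus strand: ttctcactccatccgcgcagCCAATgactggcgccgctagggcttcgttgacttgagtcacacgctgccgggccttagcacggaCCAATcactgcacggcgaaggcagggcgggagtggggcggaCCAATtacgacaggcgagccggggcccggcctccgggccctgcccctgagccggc
Hsd17b7, chr1:169969206-169969385, minus strand: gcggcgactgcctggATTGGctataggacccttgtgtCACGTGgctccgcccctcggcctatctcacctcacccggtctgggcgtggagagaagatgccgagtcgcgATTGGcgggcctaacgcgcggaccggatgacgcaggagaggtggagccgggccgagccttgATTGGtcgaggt

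The promoter tables held 11 start sites for the 9 genes, 3 of them for *Dhcr7*, as windows from 250 bases before to 50 bases after the start. All 9 genes had a CCAAT box in at least 1 window. It stood in 9 of the 11 windows, while 37.4% of all 32851 windows held it. The E-box was found in 3 windows, 98 bases before the start of *Sc5d*, 143 bases before that of *Hsd17b7* and 164 bases before 1 of the starts of *Dhcr7*, against 7.15% of all windows. TCACNCCAC, a core of the sterol response element, was in none of the 11 windows and in 1.24% of all windows. Only this exact word was searched, so other forms of the element were not looked for and may be present. Both strands were searched for each word, and no CCAAT match overlapped an E-box match. A match of letters is a description, and no binding was measured.

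*Mlxipl*, the targeted gene, had 181.8, 709.0 and 860.1 CPM in KPF (replicates 1, 2, 3), all lower than the 974.0, 1277.3 and 890.9 CPM of WPF (replicates 2, 3, 4). Its log2 fold change was -0.84 ± 0.53 (standard error, SE), with an adjusted p of 0.584 in edgeR. Reads were counted over the whole gene, so these values do not show whether the exon targeted by Cre was removed. CPM here are counts scaled to a common total of reads on the tested genes after TMM normalization. The libraries held between 10694496 and 14496630 counted reads, and the KPF libraries were the smaller. KPF replicate 2 stood apart by RNA of striated muscle, whose 5 markers summed to 3006 CPM there and to between 4.63 and 10.6 CPM in the other 5 libraries. WPF replicate 4 stood apart by 15 known targets of ChREBP, a list that includes *Mlxipl* itself. Their sum was 2584 CPM there, against 14180 and 17958 CPM in the other WPF libraries and between 1287 and 2064 CPM in KPF. The 8 hepatocyte markers summed to between 85433 and 182241 CPM in every library. Because whole tissue was sequenced, fewer hepatocytes and less RNA per hepatocyte cannot be told apart in any value that follows.

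As a group, the 9 mRNAs stood lower in KPF vs. WPF in 8 cases, but only *Sc5d* passed the call rule. The rule asked for an unadjusted p under 0.05 from edgeR's quasi-likelihood test and a change of at least 1.5-fold. Among all tested genes 3.98% were called lower in KPF, 5.83% were called higher and 9.81% in either direction, so that 1 called gene of 9 is close to the background. No member was called higher. A log2 fold change below 0 was found for 48.6% of all tested genes, and the median was 0.02 over all of them and -0.43 over the 9 members. No gene of the 10866 passed an adjusted p of 0.05 in edgeR (smallest adjusted p = 0.397), while 1176 had an unadjusted p under 0.05 and DESeq2 gave 156 genes at an adjusted p under 0.05. The members' adjusted p values in edgeR ran from 0.430 to 0.805. For 3 dams against 3, a two-sided exact permutation p cannot be lower than 0.1.

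**Figure D1:**
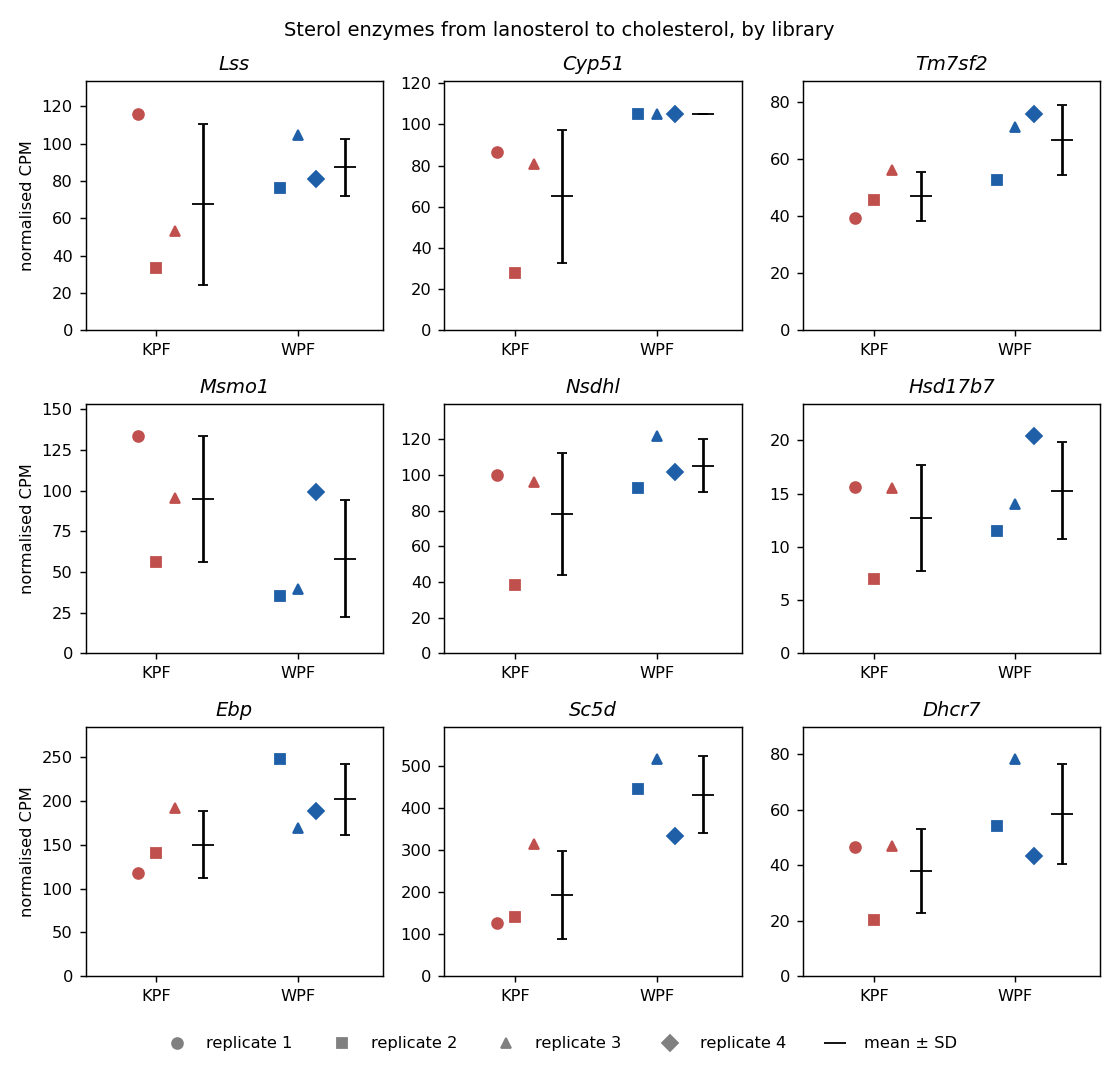
Normalised CPM of the 9 enzyme mRNAs in each library, 1 panel a gene with its own axis from 0, with points for the replicates of KPF and WPF and the mean ± SD of each group beside them. KPF and WPF are apart in *Sc5d* and *Cyp51* and overlap in the other 7 genes, and KPF replicate 2 is the lowest of all 6 libraries in 5 genes.

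*Lss* codes for lanosterol synthase, which makes the first sterol ring system (ENSMUSG00000033105, chromosome 10, 76367422 to 76392972, plus strand, GRCm39). In the order of the replicates, which holds for all values given by library from here on, KPF had 116.1, 33.5 and 53.2 CPM and WPF had 76.2, 104.6 and 81.3 CPM. KPF thus held both the highest and the lowest of the 6 libraries, and the groups overlapped. The means were 67.6 ± 43.2 and 87.4 ± 15.1 CPM (SD, n = 3 each), with a log2 fold change of -0.37 (SE 0.44, adjusted p = 0.774 in edgeR). Without KPF replicate 1 *Lss* would have been called lower, at -1.01 (unadjusted p = 0.0143 in edgeR), whereas without KPF replicate 2 the value was -0.05 (SE 0.37).

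*Cyp51*, the demethylase that acts on lanosterol (ENSMUSG00000001467, chromosome 5, 4131145 to 4154746, minus strand), had 86.7, 28.0 and 80.9 CPM in KPF and 105.0, 105.3 and 105.0 CPM in WPF. No KPF library reached the lowest WPF library (exact permutation test, two-sided, p = 0.1), a pattern shown by 2 of the 9 members and by 8.15% of all tested genes. The WPF libraries lay closer together (SD 0.181 CPM) than the counting error of 2.76 CPM at their 1199 to 1769 reads, so this SD is smaller than counting alone would give. The log2 fold change was -0.69 (SE 0.40, 95% confidence interval -1.63 to 0.25, adjusted p = 0.565 in edgeR). It was -0.33 (SE 0.23, unadjusted p = 0.189) without KPF replicate 2. *Akap9* overlaps *Cyp51* on the other strand with 2887 reads against 6488, and whether the counting used strand was not given in the sources used here.

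*Tm7sf2* codes for a reductase of a double bond in the sterol ring (ENSMUSG00000024799, chromosome 19, 6112851 to 6118403, minus strand). KPF had 39.2, 45.6 and 56.0 CPM and WPF had 52.7, 71.1 and 75.9 CPM. Only KPF replicate 3 and WPF replicate 2 crossed. The means of 46.9 ± 8.47 and 66.6 ± 12.2 CPM (SD, n = 3 each) gave a log2 fold change of -0.50 (SE 0.24, 95% confidence interval -1.06 to 0.06, adjusted p = 0.491 in edgeR). KPF replicate 2 stood at 95.9% of the mean of the other KPF libraries, and the value without it was nearly the same, -0.49 (SE 0.28). Leaving out KPF replicate 3 or WPF replicate 2, the libraries that crossed, gave a call at -0.65 in either case (unadjusted p = 0.0430 and 0.0478 in edgeR). *Vps51* overlaps it on the same strand.

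*Msmo1*, the oxidase that starts the removal of the methyl groups next to the sterol's hydroxyl group, was the only member above 0 in KPF vs. WPF (ENSMUSG00000031604, chromosome 8, 65171173 to 65186826, minus strand). Its level was 133.2, 55.9 and 95.4 CPM in KPF and 35.2, 39.7 and 99.4 CPM in WPF. WPF replicate 4 lay within the range of KPF, while WPF replicates 2 and 3 lay below it. The means were 94.9 ± 38.6 and 58.1 ± 35.9 CPM (SD, n = 3 each) and the log2 fold change was 0.71 (SE 0.48, adjusted p = 0.611 in edgeR). It was 0.97 without KPF replicate 2 (SE 0.47, unadjusted p = 0.0742) and 1.33 without WPF replicate 4, where it passed the rule (unadjusted p = 0.0131 in edgeR).

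*Nsdhl* and *Hsd17b7* finish the removal of these methyl groups, the first as a dehydrogenase that releases carbon dioxide and the other as a ketone reductase. *Nsdhl* (ENSMUSG00000031349, chromosome X, 71962163 to 72002120, plus strand) had 99.9, 38.5 and 96.0 CPM in KPF and 92.7, 121.6 and 101.5 CPM in WPF. KPF replicates 1 and 3 lay within the WPF range and KPF replicate 2 far below it. The log2 fold change was -0.43 with all libraries (SE 0.37, adjusted p = 0.692 in edgeR) and -0.11 without KPF replicate 2 (SE 0.25).

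*Hsd17b7* (ENSMUSG00000026675, chromosome 1, 169777104 to 169796810, minus strand) was the least abundant, with 15.6, 6.99 and 15.5 CPM in KPF and 11.5, 14.0 and 20.4 CPM in WPF. The groups overlapped, with KPF replicate 2 again the lowest, at 78 reads. Its log2 fold change was -0.27 (SE 0.36, adjusted p = 0.805 in edgeR) and 0.02 without KPF replicate 2 (SE 0.29), so its sign rested on that library.

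*Ebp* codes for the sterol isomerase that shifts the double bond within the ring (ENSMUSG00000031168, chromosome X, 8051568 to 8059751, minus strand). It had 118.0, 140.4 and 192.2 CPM in KPF and 247.7, 169.0 and 189.2 CPM in WPF. KPF replicate 3 lay within the WPF range and the groups overlapped. The means were 150.2 ± 38.1 and 201.9 ± 40.9 CPM (SD, n = 3 each), with a log2 fold change of -0.43 (SE 0.28, adjusted p = 0.605 in edgeR) and -0.39 without KPF replicate 2 (SE 0.32).

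*Sc5d*, the desaturase that puts a double bond into lathosterol, showed the largest difference of the 9 (ENSMUSG00000032018, chromosome 9, 42162891 to 42175552, minus strand). Its level was 126.1, 141.4 and 313.5 CPM in KPF and 444.8, 515.3 and 334.4 CPM in WPF. KPF replicates 1 and 2 were low, and KPF replicate 3 came close to WPF replicate 4 without reaching it (exact permutation test, two-sided, p = 0.1). The means were 193.7 ± 104.1 and 431.5 ± 91.2 CPM (SD, n = 3 each), 2.23-fold higher in WPF. The log2 fold change was -1.16 (SE 0.40, 95% confidence interval -2.10 to -0.22, unadjusted p = 0.0223, adjusted p = 0.430 in edgeR). By unadjusted p it ranked 554 among the tested genes.

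The call of *Sc5d* depended on which libraries were kept. Without KPF replicate 2 it was -0.98 (SE 0.44, 95% confidence interval -2.01 to 0.04, unadjusted p = 0.0579 in edgeR). Nor was it called without KPF replicate 1 (-0.92, unadjusted p = 0.0674 in edgeR). The same held without WPF replicate 2 (-1.13, unadjusted p = 0.0539 in edgeR) and without WPF replicate 3 (-1.01, unadjusted p = 0.0717 in edgeR). It was called without KPF replicate 3 and without WPF replicate 4, and leaving out single libraries gave values from -1.69 to -0.92.

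*Dhcr7*, a reductase at the end of the route (ENSMUSG00000058454, chromosome 7, 143376882 to 143402147, plus strand), had 46.5, 20.4 and 47.0 CPM in KPF and 54.1, 78.2 and 43.3 CPM in WPF. WPF replicate 4 lay below KPF replicates 1 and 3, so the groups overlapped. The log2 fold change was -0.62 (SE 0.37, adjusted p = 0.573 in edgeR) and -0.33 without KPF replicate 2 (SE 0.30).

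**Figure D2:**
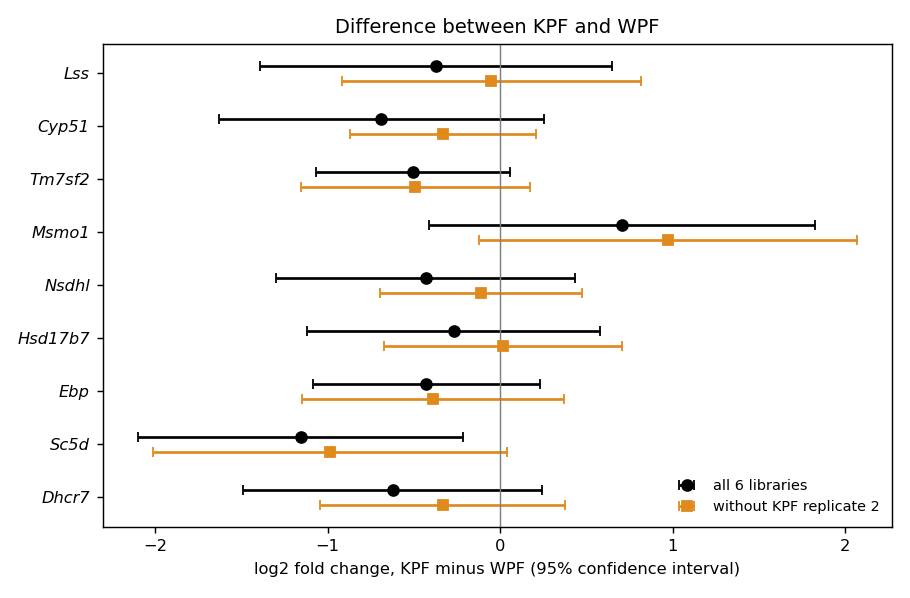
Log2 fold change of KPF minus WPF for each gene with its 95% confidence interval from edgeR, with all 6 libraries (circles) and without KPF replicate 2 (squares). With all libraries the interval of *Sc5d* alone lies below 0, and without KPF replicate 2 every interval includes 0.

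KPF replicate 2 was low in most of the 9 genes. It was the lowest of all 6 libraries in *Lss*, *Cyp51*, *Nsdhl*, *Hsd17b7* and *Dhcr7*, and the lowest KPF library in *Msmo1* too. In all 9 genes it stood below the mean of KPF replicates 1 and 3, at between 33.4% of it for *Cyp51* and 95.9% for *Tm7sf2*. The median log2 difference of this library from the mean of the other KPF libraries was -1.15 over the members and -0.00 over all tested genes, and 3.75% of the tested genes lay as low as the members' median. The 3 genes that were least low there, *Tm7sf2*, *Ebp* and *Sc5d*, had their lowest level in KPF replicate 1. Without KPF replicate 2 none of the 9 was called in either direction, against 4.48% of tested genes called lower, 7 remained below 0, and the median was -0.33 against -0.01 over all tested genes. The part of the muscle RNA of this library in its low sterol genes was not tested.

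Summed over the 9 genes, KPF replicates 1, 2 and 3 had 781, 511 and 950 CPM and WPF replicates 2, 3 and 4 had 1120, 1219 and 1050 CPM. The sums of the groups did not overlap, but *Sc5d* was the most abundant member by CPM in WPF and weighed most in them. Without *Sc5d* the sums were 655, 369 and 636 CPM in KPF and 675, 703 and 716 CPM in WPF, so the groups lay closer, and WPF replicate 4, the lowest of WPF with *Sc5d*, was the highest without it. With equal weight for each gene the groups overlapped. The mean log2 CPM of the 9 genes, each centred on its own mean over the 6 libraries, was 0.02, -0.85 and 0.10 in KPF and 0.10, 0.31 and 0.32 in WPF, and KPF replicate 3 (0.1024) lay above WPF replicate 2 (0.0979). In KPF replicate 3, 8 of the 9 genes were at or above their own mean, against 6 in WPF replicate 2.

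The 9 genes did not vary as 1 block. Over the 6 libraries the 36 pairs had a median Pearson r of 0.485, with 11 pairs above 0.7 and 5 below 0. *Cyp51* and *Nsdhl* went together most closely (r = 0.968), and *Dhcr7* followed *Nsdhl* (r = 0.939) and *Cyp51* (r = 0.902). These were genes that were low in KPF replicate 2. *Sc5d* varied with *Ebp* (r = 0.819) and *Tm7sf2* (r = 0.797), and it went opposite to *Msmo1* (r = -0.583). Without KPF replicate 2 the median r was 0.212, with 4 pairs above 0.7 and 15 below 0. All pairs share the same 6 libraries and their normalization, and these values are descriptions.

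The tested genes outside the members that lay closest to the members' mean profile over the 6 libraries were *Abraxas2* (r = 0.992), *Sumf1* (r = 0.991), *Apobec1* (r = 0.990), *Gsdme* (r = 0.985) and *Scyl2* (r = 0.982). Among the tested genes of the 4 other sterol lists described further on, the closest were *Acat2* (r = 0.857), *Sqle* (r = 0.847), *Cyb5r3* (r = 0.842), *Abca1* (r = 0.824) and *Insig1* (r = 0.815), and 2.93% of all tested genes had an r at least as high as that of *Acat2*. Others in these lists went the opposite way, most of all *Abcg5* (r = -0.761) and *Por* (r = -0.699). The mean profile was mainly a low value in KPF replicate 2 (-0.85, against 0.02 to 0.32 in the other libraries).

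Per length, the order of the mRNAs was not the order of the pathway. By mean FPKM over the 6 libraries (± SD), *Ebp* was first at 75.1 ± 18.3 and *Sc5d* next at 64.1 ± 34.0, followed by *Nsdhl* at 32.1 ± 11.4, *Cyp51* at 19.3 ± 7.63, *Tm7sf2* at 12.99 ± 4.56 and *Msmo1* at 12.4 ± 6.53. *Dhcr7* at 8.27 ± 3.53, *Lss* at 7.20 ± 3.13 and *Hsd17b7* at 2.76 ± 1.12 were lowest. *Nsdhl* was above *Cyp51*, and *Lss* above *Hsd17b7*, in all 6 libraries. *Ebp* was above *Sc5d* in 5 of 6, and *Tm7sf2*, *Msmo1*, *Dhcr7* and *Lss* were each above the next in this order in 4 of 6 libraries, except that *Lss* was above *Hsd17b7* in all. In KPF *Ebp* led by its mean (61.0 against 36.9 FPKM for *Sc5d*), while in WPF both had about the same mean (89.2 and 91.2 FPKM).

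**Figure D3:**
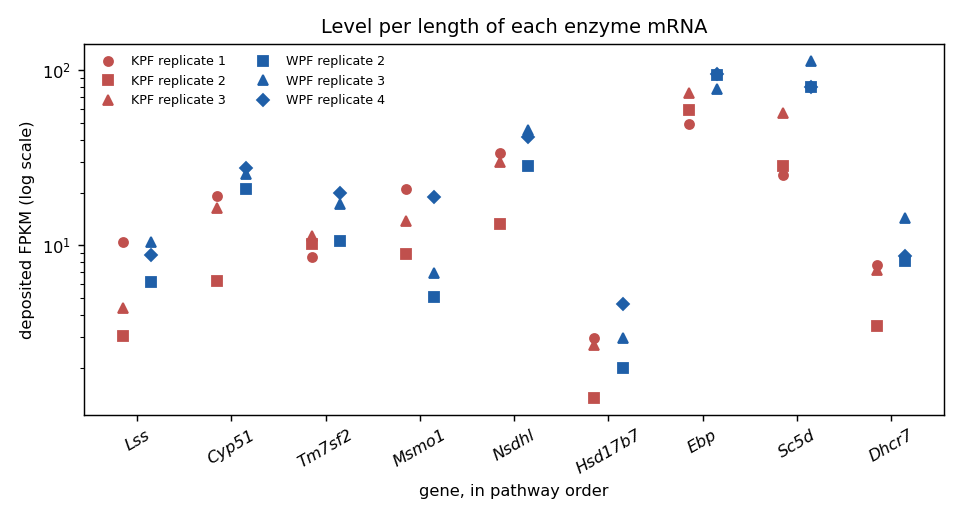
Deposited FPKM, a level per exonic length, of the 9 enzyme mRNAs in pathway order on a log axis, 1 point a library, for KPF and WPF. *Ebp* and *Sc5d* have the highest means, 75.1 and 64.1 FPKM, and *Hsd17b7* the lowest, 2.76 FPKM.

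The earlier part of the route, from acetyl-CoA to squalene epoxide, held 10 tested genes. Of these 2 were called lower, against 3.98% of all tested genes, none was called higher and 6 lay below 0 (median log2 fold change -0.22). *Pmvk*, the kinase of phosphomevalonate, had 15.1, 8.52 and 13.9 CPM in KPF and 27.2, 36.8 and 18.9 CPM in WPF, with no overlap (log2 fold change -1.14, SE 0.32, unadjusted p = 0.00795, adjusted p = 0.430 in edgeR). *Acat2*, the thiolase at the entry, had 39.7, 20.9 and 35.8 CPM in KPF and 51.0, 69.8 and 40.8 CPM in WPF, also with no overlap (log2 fold change -0.75, SE 0.31, unadjusted p = 0.0457, adjusted p = 0.456 in edgeR). Of all tested genes 8.15% had every KPF library below every WPF library. *Pmvk* was called with any 1 library left out, and *Acat2* was not called without replicate 2 or replicate 3 of either group (unadjusted p from 0.0630 to 0.170 in edgeR). All 10 were below the mean of the other KPF libraries in KPF replicate 2, where *Hmgcs1*, which makes HMG-CoA, stood at 20.4%, *Fdps* at 28.4%, *Idi1* at 29.97% and *Sqle* at 35.0% of it. Of all tested genes 52.5% were below that mean in this library. *Hmgcs1* had 1391, 235 and 916 CPM in KPF and 632, 839 and 585 CPM in WPF, so its KPF libraries lay on both sides of WPF. Without KPF replicate 2, *Pmvk* alone was called lower, *Mvk* was called higher (log2 fold change 1.08, unadjusted p = 0.0486 in edgeR) and the median was 0.05.

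**Figure D4:**
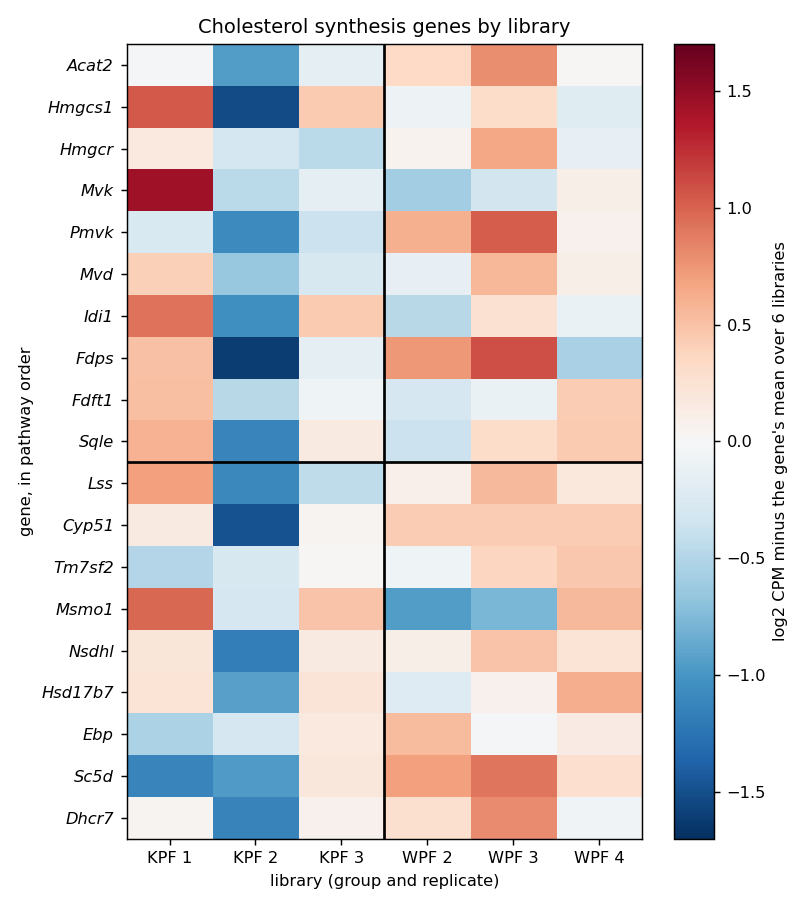
Log2 CPM minus each gene's own mean over the 6 libraries, red above and blue below that mean, for 10 genes from acetyl-CoA to squalene epoxide (above the black line) and the 9 genes from lanosterol synthase on (below it), in pathway order, with KPF left and WPF right. The column of KPF replicate 2 is blue in all 19 genes, and *Msmo1* differs from its neighbours in WPF replicates 2 and 3.

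The genes that control the route and take up LDL had 9 tested members of 11, with 2 called lower, none higher, 8 below 0 and a median of -0.44. Among all tested genes 3.98% were called lower, and 8.15% had every KPF library below every WPF library. *Insig1*, which holds SREBP2 in the endoplasmic reticulum and is itself a target of it, had 176.9, 159.2 and 268.8 CPM in KPF and 311.6, 412.3 and 369.6 CPM in WPF, with no overlap (log2 fold change -0.85, SE 0.29, unadjusted p = 0.0193, adjusted p = 0.430 in edgeR). *Stard4*, a carrier of cholesterol, was called at -0.71 (unadjusted p = 0.0453 in edgeR). *Insig1* was not called without KPF replicates 1 or 2 or WPF replicate 3 (unadjusted p from 0.0516 to 0.0698 in edgeR), nor *Stard4* without KPF replicates 1, 2 or 3 or WPF replicate 4 (0.0602 to 0.164). Without KPF replicate 2 *Srebf1* was the 1 gene called (log2 fold change -1.54). *Srebf2*, the gene of SREBP2, had a log2 fold change of 0.11 (SE 0.23, unadjusted p = 0.640).

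Other genes of the last sterol steps gave no call in 6 tested of 7, with a median of -0.24 and the smallest p in *Pgrmc1*, a partner of *Cyp51* (log2 fold change -0.54, unadjusted p = 0.0836 in edgeR). Genes that use or export cholesterol gave none in 10 tested of 12, with a median of -0.13 and the smallest p in *Abca1*, the exporter of cholesterol (log2 fold change -0.51, unadjusted p = 0.0430 in edgeR, below the 1.5-fold limit). Without KPF replicate 3 *Pgrmc1* (-0.73) and *Abca1* (-0.60) were called lower. Without KPF replicate 2 *Abcg8*, of the genes that use or export cholesterol, was called lower (-1.02, unadjusted p = 0.0316 in edgeR). By contrast, 12 of the 15 targets of ChREBP were called lower (median -2.41), with the smallest p in *Acacb*, *Pklr*, *Scd1* and *Me1*, and 11 without KPF replicate 2. That list, which includes *Mlxipl*, was known from earlier results of these data to be lower.

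Markers of other cells were summed in each library. Stellate and endothelial markers summed to 279 to 403 CPM in KPF and 199 to 253 CPM in WPF, with 3 of 13 called higher (*Col3a1*, *Pecam1* and *Reln*), against the 5.83% of all tested genes called higher, and 4 of 13 without KPF replicate 2. Kupffer cell markers summed to between 155 and 278 CPM over all libraries, with none of 8 called and the smallest p in *Cd5l*. Without KPF replicate 2, 1 of these 8 was called higher, *Marco* (log2 fold change 0.78, unadjusted p = 0.0463 in edgeR). Cholangiocyte markers summed to between 25.0 and 51.9 CPM, with none of 2 called and the smallest p in *Spp1*. Adipose markers summed to 40.5, 56.4 and 9.15 CPM in KPF and to between 4.99 and 11.9 CPM in WPF, with both tested markers, *Cfd* and *Fabp4*, called higher (1 of 2 without KPF replicate 2) and the fat hormone gene *Lep* at 0 in every library. Erythroid markers summed to 347, 71.4 and 211 CPM in KPF and 34.0, 90.7 and 227 CPM in WPF, and lymphocyte markers to between 4.04 and 15.9 CPM, with none called in either list. The smallest p in these lists was that of *Hba-a1*, called higher without WPF replicate 4, and of *Cd79a*, called higher without KPF replicate 1. Among the hepatocyte markers *Apoa2* was called lower, and without KPF replicate 2 *Ttr* was called lower in its place (log2 fold change -1.48, unadjusted p = 0.00638 in edgeR). The call of *Apoa2* was lost without KPF replicates 1 or 2 or without WPF replicates 2 or 3, that of *Reln* without KPF replicate 1 or WPF replicates 2 or 4, and that of *Fabp4* without KPF replicates 1 or 2 or without WPF replicates 3 or 4, while *Cd5l* was called lower without KPF replicate 3. The part of these cells in the values of the 9 genes was not tested.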

How the data were processed

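Liver RNA of 6 dams, 3 a group, was measured. The table that the authors deposited holds raw counts of reads for every gene, and FPKM beside them. Each FPKM equals the count divided by exonic length and library total, within 0.005. The submitters' processing notes name cutadapt 1.9.1, HISAT2 2.2.1, HTSeq 0.6.1, DESeq2 and GRCm39. For its volcano plot of KPF and WPF liver RNA-seq, the paper's legend names t-tests between the groups. Gene symbols came from GENCODE and RefSeq tables (52073 of 56691 IDs matched), and promoter windows from RefSeq on GRCm38.p6, which were not combined with the coordinates of the deposited table.

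Counts of genes whose mean FPKM was 1 or more were tested by edgeR 4.0.16 (R 4.3.3, quasi-likelihood test, TMM, group as the only term, Benjamini-Hochberg over 10866 genes). CPM are normalised counts. Standard errors were derived from the fold change and its F value. The test was tried on simulated counts. limma 3.58.1 on log2(FPKM + 1) and DESeq2 1.42.0 were alternatives, with other scalings, filters, a block for the replicate number, and each library left out. No 2 libraries of a group agreed within sampling noise (chi-square per gene at least 35.5).

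The 9 genes and the other lists were chosen with earlier results of these data known. Named were all 9 genes, the targeted gene, the 5 genes of the most similar profile and, from each list, up to 4 called genes or else that of the smallest p. Muscle markers are given as a sum, because all 5 were highest in 1 library. *Cyb5r3*, *Hmgcs1*, *Fdps*, *Idi1*, *Sqle*, *Mvk*, *Srebf1*, *Srebf2*, *Lep*, *Abcg5*, *Por*, *Abcg8*, *Marco* and *Ttr* were named after their values were seen.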

Additional observations from a re-analysis of the deposited data

How the results depend on the processing

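The median log2 fold change of the 9 genes stayed below 0 under all 17 alternatives, 16 of them planned. *Sc5d* was below 0 in all 17 and called in 13, and *Msmo1* was above 0 in all 17 and called in 3. *Cyp51* was called lower in 3, *Lss*, *Tm7sf2* and *Dhcr7* in 2 each, and *Nsdhl*, *Ebp* and *Hsd17b7* were never called. *Hsd17b7* turned to 0.02 without KPF replicate 2 and to 0.27 without KPF replicate 2 and WPF replicate 4, the alternative chosen after seeing the data, the cause was not tested, and leaving out single libraries gave -0.45 to 0.02. That alternative called 657 genes lower and 44 at an adjusted p under 0.05. Of the members it called 1 lower, *Sc5d* (-1.14), and 1 higher, *Msmo1*. Library totals in place of TMM moved the median of all genes from 0.02 to -0.12 and the calls from 634 higher and 432 lower to 371 and 716. With no filter, every gene with any read was tested, a larger set than the 10866. In that larger set 2486 genes were called (1576 higher, 910 lower, 286 at an adjusted p under 0.05), and 3 members were called lower. A mean FPKM of at least 5, which drops *Hsd17b7*, left 460 (255 higher, 205 lower). limma on log2(FPKM + 1) called 237 of the 10866 genes higher. With a pseudocount of 0.1 it called 288 of them higher and 700 lower, with 2 members among those called lower. DESeq2 gave 156 genes at an adjusted p under 0.05.

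Leaving out 1 library gave 570 called genes (WPF replicate 3; 641 for WPF replicate 2) to 1619 (KPF replicate 3), 324 to 910 higher, 246 to 709 lower, 0 to 5 at an adjusted p under 0.05 (5 without WPF replicate 4), and 0 to 2 members lower (0 without KPF replicate 2 or WPF replicate 3) and 0 to 1 higher. The members' median was -0.65 without KPF replicate 1 and -0.33 without KPF replicate 2. With the replicate number as a block, which only 4 libraries share, 4 members were called lower and 1 higher, *Msmo1*. Those called lower were *Lss*, *Cyp51*, *Dhcr7* and *Sc5d*, which kept its call. Among all 10866 tested genes this setting called 551 lower and 680 higher. The replicate numbers stand for different dams. Each tested gene's log2 CPM was centred on its own group's mean, and the KPF and WPF libraries of the same number were then correlated. The r of these deviations was 0.0448 for replicate 2 and -0.0168 for replicate 3, which gave no sign that the numbers pair the samples.

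Depth limits *Hsd17b7* most, at 78 reads in its lowest library. With 3 dams a group, the 95% confidence intervals of 8 of the 9 genes included 0 and were wide enough to hold a change of 1.5-fold.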
